A study of Mus musculus with 2 samples.

Results

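The genes described here are 37 members of the mouse Wnt pathway: the 19 Wnt ligands, 12 receptors (10 Frizzled genes, Fzd1 to Fzd10, with the co-receptor genes Lrp5 and Lrp6) and 6 effectors (Axin1, Axin2, Ctnnb1, Lef1, Tcf7l1 and Tcf7l2). They were chosen by gene symbol and class, with earlier results of these data known. All 37 matched among the 21938 protein-coding genes of the annotation. Chromatin accessibility was measured by DNase-seq, in which nuclei are treated with the enzyme DNase I and the cut ends are sequenced. A region cut more often than its surroundings is a DNase I hypersensitive site (DHS), and a short stretch inside it that stays uncut is a footprint. The tissue was cerebral cortex of the left side, from female mice at postnatal day 4, of the strain B6CASTF1/J, a first-generation cross of 2 inbred strains. There was 1 group of 2 libraries, called replicate 1 and replicate 2, which the labels ascribe to animals with different numbers and to 1 strain-level donor. No treatment, genotype or age was compared, so the comparisons are among the members, between the libraries and with all other genes. The tissue is a mixture of cell types, so a low value from few cells of a type and a low value from less accessible chromatin in each cell cannot be told apart.

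Wnt proteins are secreted lipid-modified signals that bind a Frizzled receptor together with Lrp5 or Lrp6 on the receiving cell. In the canonical branch, binding stops the Axin complex from marking beta-catenin, the product of Ctnnb1, for destruction, and beta-catenin then enters the nucleus and activates genes with the DNA-binding factors Lef1, Tcf7l1 and Tcf7l2. In the developing cortex the pathway is known for patterning the medial wall next to the cortical hem, for the balance of progenitor division and neuron production, and for growth of the brain's blood vessels.

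Replicate 1 had 59355 DHS calls and replicate 2 had 46566, with median signal values, the authors' tag density, of 0.556 and 1.45. The sources used here do not give the scaling of these values or the number of reads, so a member's values are given side by side, each with its percentile among the genes with a promoter call in that library. A promoter call is one that overlaps the stretch from 1 kb before to 1 kb after a transcription start site (TSS) of the gene. A shared DHS is a union of overlapping calls that contains calls of both libraries, and there were 26012. Of 12 markers of cortical neurons and progenitors, 6 had a shared promoter DHS, among them Tbr1, and 11 had a promoter call in replicate 2. Slc17a7, the vesicular glutamate transporter of excitatory neurons, had none in either library. Among markers of other cells that cortical tissue could hold, a shared promoter DHS was found at 1 of 8 for endothelium and mural cells (Flt1), 2 of 8 for meninges and choroid plexus (Col1a1 and Aldh1a2) and 1 of 5 for the cortical hem and Cajal-Retzius cells (Reln). All protein-coding genes stood at 55.7% and those with CpG-poor promoters, the class of 6 of the 8 markers in each of the first pair of lists, at 20.1%. Genes with CpG-richer promoters stood at 90.4%. That class held all 5 markers of the hem list and 8 of the 12 of neurons and progenitors. Of these 8, 5 had a shared promoter DHS. No promoter call in either library was found at 5 of 8 endothelial and mural markers (Cldn5, Pdgfrb, Pecam1, Slco1c1 and Tek), 5 of 8 of meninges and choroid plexus (Col1a2, Dcn, Folr1, Lum and Ttr) and 2 of 5 of the hem list (Lmx1a and Trp73). Kdr had calls of both libraries that did not overlap, Cdh5 and Foxc1 calls of replicate 1 alone, and Lhx1 and Lhx5 calls of replicate 2 alone. Distal shared DHSs nearest these markers numbered 32 for the 12 neuronal and progenitor genes, 32 for the endothelial and mural, 9 for the meningeal and choroid plexus and 6 for the hem list. Cdh5 alone had 24 of the endothelial and mural ones, and Mef2c 13 of the neuronal and progenitor ones.

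Promoter DHSs called in both libraries were few at the ligands and found at all 6 effectors. A shared promoter DHS was found at 5 of 19 ligands (26.3%), 9 of 12 receptors (75.0%) and 6 of 6 effectors (100%), or 20 of 37 members (54.1%). Among all protein-coding genes the share was 55.7% (12219 of 21938), so the members as a whole were close to the background. It was 90.4% among genes with CpG-richer promoters, the class described below to which all 12 receptors and 6 effectors belong. By single library, replicate 1 had a promoter call at 5 ligands, 10 receptors and 6 effectors, against 57.0% of all genes, and replicate 2 at 8 ligands, 10 receptors and 6 effectors, against 60.2%. The counts are over genes, not over replicate animals, and they describe these 2 libraries with no test. The ligand count moved most between settings, from 2 with a window of 0.5 kb to 10 with the lenient lists of calls, while receptors ran from 7 to 11 and effectors from 4 to 6.

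**Figure D1:**
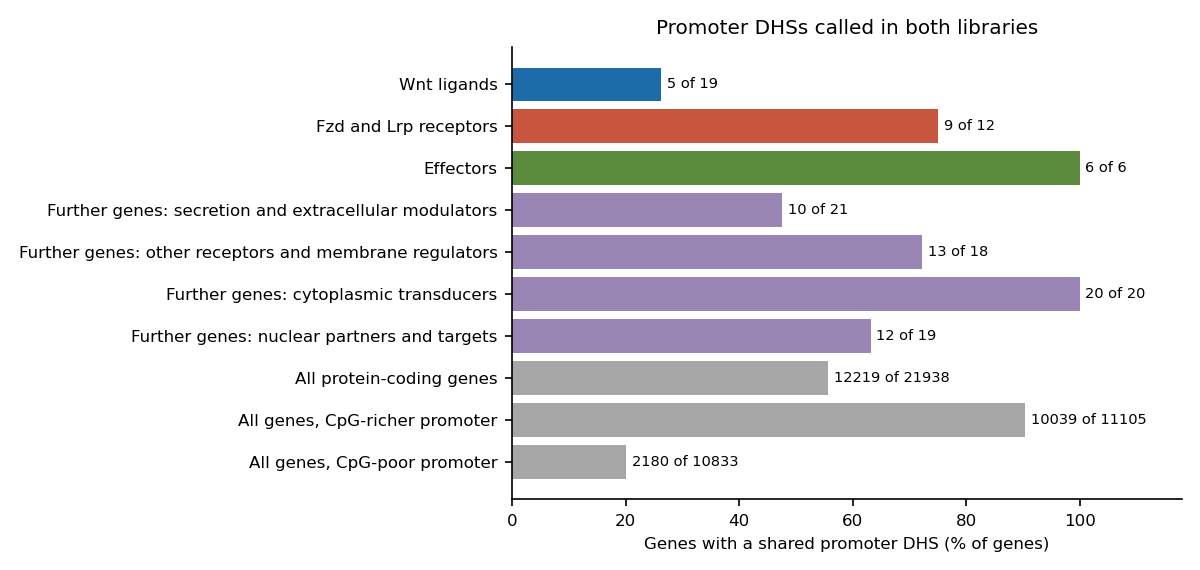
Percentage of genes with a promoter DHS called in both libraries (bars, horizontal axis in percent from 0), with the counts beside each bar, for the Wnt ligands, receptors and effectors, the 4 lists of further pathway genes, and all protein-coding genes together and by CpG class. Ligands stand at 26.3% and effectors at 100%, against 55.7% of all genes and 90.4% of genes with a CpG-richer promoter.

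CpG dinucleotides are common at the promoters of broadly used genes, and such promoters are open in most tissues, so the members were also set beside genes of the same CpG class. A promoter was called CpG-richer where the observed to expected CpG ratio within 500 bp of a TSS was 0.6 or more. Of all genes with a CpG-richer promoter 90.4% had a shared promoter DHS, and of genes with a CpG-poor promoter 20.1%. All 12 receptors and 6 effectors had CpG-richer promoters. Of these, 9 receptors (75.0%) had a shared promoter DHS, below the share of the class. All 6 effectors had one, which is near the share of the class for so few genes. CpG-richer promoters were also found at 14 of the 19 ligands. Only 4 of those 14 ligands (28.6%) had a shared promoter DHS, Wnt7a, Wnt7b, Wnt9a and Wnt11. Of the 5 ligands with a CpG-poor promoter (Wnt1, Wnt8a, Wnt8b, Wnt10a and Wnt16), Wnt16 had one. The CpG ratio of the ligands without a shared promoter DHS ran from 0.254 (Wnt8a) to 1.00 (Wnt5b), so ligands with CpG-dense promoters were among them.

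Among the ligands, Wnt7a and Wnt7b had the strongest promoter calls in replicate 1. They are the Wnt genes known for expression in cortical progenitors and neurons, and their proteins signal to brain endothelium through a receptor complex that holds Reck and Adgra2. The signal value at the Wnt7b promoter was 1.53 in replicate 1 and 3.85 in replicate 2, percentiles of 48.0 and 47.3. The Wnt7a promoter had 1.27 and 2.81, percentiles of 34.0 and 33.7. In replicate 2, Wnt7b again came first and Wnt11 second. Wnt7a and Wnt7b lay below the median promoter of each library, at nearly the same rank in the 2 animals. Each had 2 shared promoter DHSs. At Wnt7a the stronger was centred 449 bp upstream of the TSS (chr6:91411624-91412000) and the weaker over the first exon. At Wnt7b the stronger was centred 767 bp upstream of the nearest of its 5 annotated TSSs, outside protein-coding genes (chr15:85583141-85583340). The sequence of the latter, on the plus strand of mm10, is shown as the strongest promoter DHS of the ligands, with the bases that lay within a footprint in both libraries in capitals.
Wnt7b promoter DHS: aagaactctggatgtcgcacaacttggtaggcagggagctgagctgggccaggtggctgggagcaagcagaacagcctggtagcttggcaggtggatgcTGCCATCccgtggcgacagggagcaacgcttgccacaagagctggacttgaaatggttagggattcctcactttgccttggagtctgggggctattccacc
Its 200 bases held 4 CpG dinucleotides and 58.0% G and C, and a single stretch of 7 bases was footprinted in both libraries.

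The other 3 ligands with a shared promoter DHS were Wnt11, Wnt9a and Wnt16. Wnt11, a ligand of the non-canonical branch, had signal values of 0.925 and 3.24, and its rank differed between libraries, with percentiles of 16.6 and 39.6. Its shared DHS lay in an intron, 789 bp upstream of the second of its 2 TSSs, and no call of either library overlapped the window around the first TSS. Wnt9a, known from joint and limb development, had 0.995 and 1.76 (percentiles of 19.9 and 18.8), in its first intron and 1032 bp downstream of the TSS at the centre, at the edge of the window. Wnt16, known from bone and blood stem cell development, had the weakest, with 0.672 and 0.796 (percentiles of 6.01 and 3.76). With the window of 0.5 kb, Wnt9a, Wnt11 and Wnt16 dropped out and Wnt7a and Wnt7b stayed. Wnt7b stayed only through its weaker shared DHS, centred 162 bp downstream of a TSS, with 0.887 and 1.32 (percentiles of 14.8 and 11.8). Its stronger shared DHS lies outside that window.

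Wnt5a, Wnt5b and Wnt6 had a promoter call in replicate 2 alone. Wnt5a and Wnt5b are non-canonical ligands, and Wnt6 is known from epithelia and neural crest. Their signal values there were 0.930, 1.04 and 0.937, percentiles of 5.58, 7.44 and 5.71, so all 3 were among the weakest promoter calls of the library. The remaining 11 ligands had no promoter call in either library: Wnt1, Wnt2, Wnt2b, Wnt3, Wnt3a, Wnt4, Wnt8a, Wnt8b, Wnt9b, Wnt10a and Wnt10b. Among them, Wnt3a, Wnt2b and Wnt8b are known from the cortical hem, Wnt1 from the midbrain, Wnt3 from gastrulation, Wnt4 and Wnt9b from the kidney, Wnt2 from the lung, and Wnt10a and Wnt10b from skin and teeth. In the lenient lists 61.5% of all genes had a shared promoter DHS, and 5 of the ligands gained one: Wnt2, Wnt2b, Wnt5a, Wnt5b and Wnt6. Wnt4 had a lenient call in replicate 2 alone, with a signal value of 0.969. The other 8 ligands without one in either lenient list were Wnt1, Wnt3, Wnt3a, Wnt8a, Wnt8b, Wnt9b, Wnt10a and Wnt10b.

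Several Wnt genes are neighbours in the genome with no protein-coding gene between them. There were 4 such pairs: Wnt6 and Wnt10a 6.19 kb apart, Wnt10b and Wnt1 11.7 kb apart, Wnt3a and Wnt9a 16.2 kb apart, and Wnt9b and Wnt3 24.3 kb apart. Of these 8 genes, 1 had a shared promoter DHS (Wnt9a), and of the other 11 ligands 4 had one. Neighbouring genes share their surroundings and are not independent observations.

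**Figure D2:**
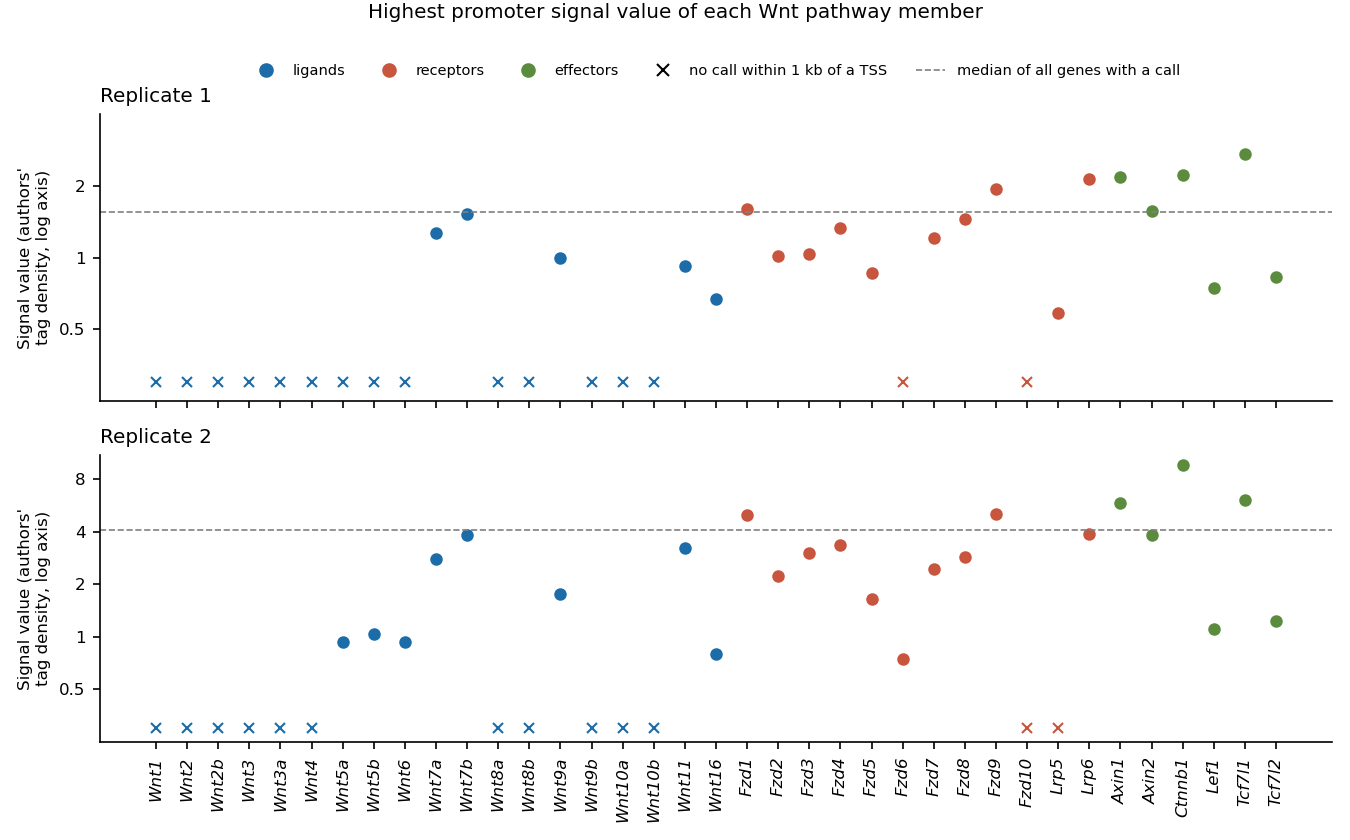
Highest promoter signal value of each of the 37 members in replicate 1 (upper panel) and replicate 2 (lower panel), on log axes, coloured by class, with crosses for members that had no call within 1 kb of a TSS and a dashed line at the median of all genes with a promoter call (1.56 and 4.09). The 8 ligands with a call lie below the line in each library in which they were called, and Ctnnb1 is the highest member of replicate 2 at 9.63.

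Most Frizzled genes, which code for the seven-pass receptors that bind Wnt proteins, were accessible at their promoters in both animals. A shared promoter DHS was found at 8 of 10 (80.0%), and the exceptions were Fzd6 and Fzd10. This share was below the 90.4% of all genes with CpG-richer promoters, the class of all 12 receptors. Fzd9 and Fzd1 were the strongest of the Frizzled genes. Fzd9, known from the hippocampus, had signal values of 1.94 and 5.06 (percentiles of 68.8 and 60.4), and Fzd1 had 1.61 and 4.99 (52.2 and 59.7). They were the only receptors above the median promoter in both libraries. The Fzd9 promoter DHS (chr5:135251001-135251420) lay across the TSS with its centre 20 bp into the gene, and the part upstream of the TSS is shown on the plus strand, with bases footprinted in both libraries in capitals. Fzd9 lies on the minus strand, so its TSS is next to the left end.
Fzd9 promoter DHS, upstream part: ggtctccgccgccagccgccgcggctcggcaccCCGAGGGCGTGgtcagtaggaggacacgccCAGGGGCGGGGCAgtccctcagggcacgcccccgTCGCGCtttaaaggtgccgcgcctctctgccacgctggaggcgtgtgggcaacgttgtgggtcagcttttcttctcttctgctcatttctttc
These 190 bases held 19 CpG dinucleotides and 67.9% G and C, and 30 of the bases were footprinted in both libraries.

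The next Frizzled promoters were close to each other in signal. Fzd8 had 1.45 and 2.88 (percentiles of 44.1 and 34.8), and Fzd4, the receptor that also binds norrin in retinal vessels, had 1.34 and 3.36 (38.3 and 41.2). Fzd7 had 1.21 and 2.46 (31.0 and 28.9), and Fzd3, which is needed for axon tracts of the forebrain, had 1.04 and 3.04 (22.2 and 36.8). The order of these 4 genes was not the same in the 2 libraries, with Fzd8 first in replicate 1 and Fzd4 first in replicate 2. Fzd2 had 1.02 and 2.24 (21.2 and 25.8), and Fzd5, known from eye development, was the weakest with 0.864 and 1.65 (13.7 and 16.9). Fzd6, known from hair and planar polarity, had a call in replicate 2 alone, with a signal value of 0.748 at the percentile of 3.17. Fzd10 had no call in either library, and lenient calls of 0.453 and 1.07 that did not overlap.

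Lrp5 and Lrp6 are the co-receptors of the canonical branch, and their promoters differed. Lrp6 had 2.15 in replicate 1 and 3.87 in replicate 2, and ranked high in the first library and in the middle of the second (percentiles of 77.6 and 47.4). Its DHS of 560 bp lay mostly upstream of the TSS. Lrp5, known for its part in bone mass, had a call in replicate 1 alone, of 0.588 at the percentile of 3.48, centred 241 bp upstream of a TSS. In the lenient lists Lrp5 and Fzd6 had overlapping calls of both libraries, which brought the receptors to 11 of 12.

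All 6 effectors had a shared promoter DHS, and their signal values ran from the percentile of 8.57 (Lef1, replicate 2) to that of 92.6 (Tcf7l1, replicate 1). Ctnnb1, which codes for beta-catenin, a protein of both Wnt signalling and cell adhesion, had 2.23 and 9.63 (percentiles of 80.4 and 91.0). Tcf7l1, a factor that mostly represses Wnt targets, had 2.72 and 6.10 (92.6 and 70.4), and the scaffold gene Axin1 had 2.19 and 5.88 (79.2 and 68.4). These 3 genes were in the upper part of both libraries. Axin2, a scaffold gene that is also a feedback target of the pathway, lay at the middle with 1.57 and 3.84 (50.5 and 47.1). Tcf7l2 had 0.827 and 1.24 (12.0 and 10.7), and Lef1 had 0.747 and 1.11 (8.93 and 8.57). The last 2 genes, which code for factors that activate Wnt targets with beta-catenin, were thus among the weaker promoters of both libraries.

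The calls at Lef1 differed in place between the animals. In replicate 1 the strongest was centred 123 bp upstream of the TSS, and in replicate 2 it was centred 179 bp downstream, and the 2 did not overlap. The shared DHS was a weaker one of 105 bp over an exon 702 bp downstream, with 0.612 and 0.969, and it was lost with the window of 0.5 kb. At Ctnnb1 the shared DHS lay across the TSS (chr9:120933221-120933560), and its upstream part is shown because its geometric mean over the libraries was the highest of the effectors (that of Tcf7l1 was higher in replicate 1), on the plus strand and with bases footprinted in both libraries in capitals.
Ctnnb1 promoter DHS, upstream part: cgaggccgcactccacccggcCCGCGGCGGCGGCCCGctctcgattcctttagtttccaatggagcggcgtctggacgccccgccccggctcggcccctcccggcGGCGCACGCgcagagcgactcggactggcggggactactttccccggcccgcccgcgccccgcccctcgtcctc
These 179 bases held 29 CpG dinucleotides and 77.1% G and C, more of both than the Fzd9 and Wnt7b stretches above.

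The signal value of replicate 2 was higher than that of replicate 1 at the strongest promoter calls of all 20 members with a shared promoter DHS. The median ratio was 2.23. Over all shared DHSs, promoter and distal together, the median was 2.13 and the quartiles 1.65 and 2.83. A ratio over promoter calls alone was not computed. The median signal values were 1.56 and 4.09 over genes with a promoter call, and 1.13 and 2.38 over all shared DHSs. Ctnnb1 had a ratio of 4.32, Wnt11 of 3.50, Fzd1 of 3.11 and Fzd3 of 2.92, above the upper quartile of all shared DHSs. Wnt16 at 1.18, Lef1 at 1.49 and Tcf7l2 at 1.51 were below the lower quartile. The strongest calls of Lef1 do not overlap, so its ratio compares different places, unlike those over shared DHSs. With 1 library per animal and an unstated scaling, these ratios are not read as differences between the animals.

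**Figure D3:**
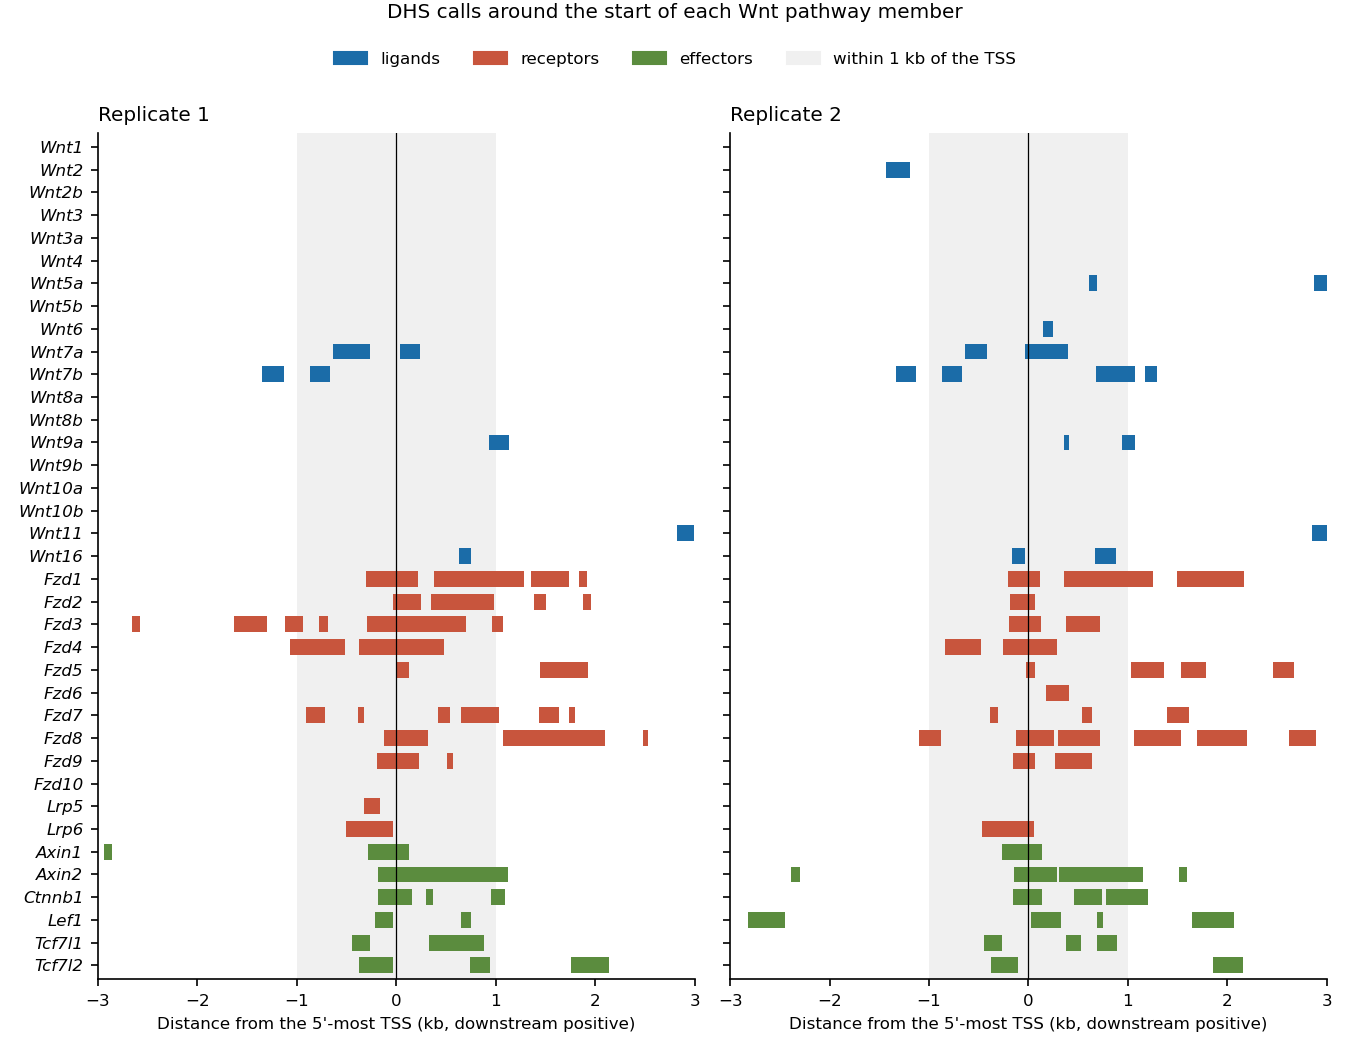
Position of the stricter calls of each library from 3 kb upstream to 3 kb downstream of the 5′-most TSS of each member (horizontal axis in kb, 1 row per gene, coloured by class, the 1 kb window in grey). Most Frizzled rows hold calls at and after the start in both libraries, most ligand rows are empty, and the promoter calls of Wnt5b and Wnt11 lie at other TSSs outside or at the edge of the plot.

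The calls depend on a threshold, so the cut rate itself was also read at every member, called or not. The authors' table of the cut rate lists each base with a false discovery rate (FDR) under 0.05, and the measure was the share of such bases within 1 kb of the gene's TSSs. The median over the 19 ligands was 3.48% in replicate 1 and 13.9% in replicate 2. Over the 12 receptors it was 67.1% and 59.7%, and over the 6 effectors 40.2% and 47.1%. All protein-coding genes had medians of 23.6% and 27.1%, and genes with a CpG-richer promoter 43.1% and 46.4%. By this share the receptor median was above that of the CpG-richer genes in both libraries, and the ligand median was below that of all genes. The window grows with the number and spacing of TSSs, from 2001 bp at most receptors to 4524 bp at Tcf7l2 and 6032 bp at Wnt5b. The order of receptors and effectors depends on it, and the ligand medians are the values of Wnt5b, which has the widest window. Counted in bases, the medians of the effectors were 1382 and 1686, those of the receptors 1342 and 1195, those of the ligands 80.0 and 301, and those of all genes 604 and 679.

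Single members show how wide the spread was within a class. Fzd7 had 99.8% of its window covered in replicate 1 and 85.5% in replicate 2, and Fzd4 had 87.6% and 95.4%, the highest of all members in the respective libraries. Wnt7a, with 69.4% and 69.5%, was the highest ligand in both. Fzd10, which had no call, had 11.7% and 26.8%. Wnt2b, also without a call, had 22.4% and 28.5%. That is close to the median of all genes but below the 43.1% and 46.4% of CpG-richer genes, its own class. Wnt2 had 4.00% in replicate 1 and 38.0% in replicate 2, and Fzd2 had 70.4% and 31.9%, so these genes differed between libraries in opposite directions. In both libraries 6 ligands had no such base at all: Wnt3a, Wnt8a, Wnt8b, Wnt9b, Wnt10a and Wnt10b. Of these, Wnt3a, Wnt9b and Wnt10b have CpG-richer promoters, a class in which 240 of 11105 genes were at 0 in both libraries. No receptor and no effector was at 0 in either library.

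**Figure D4:**
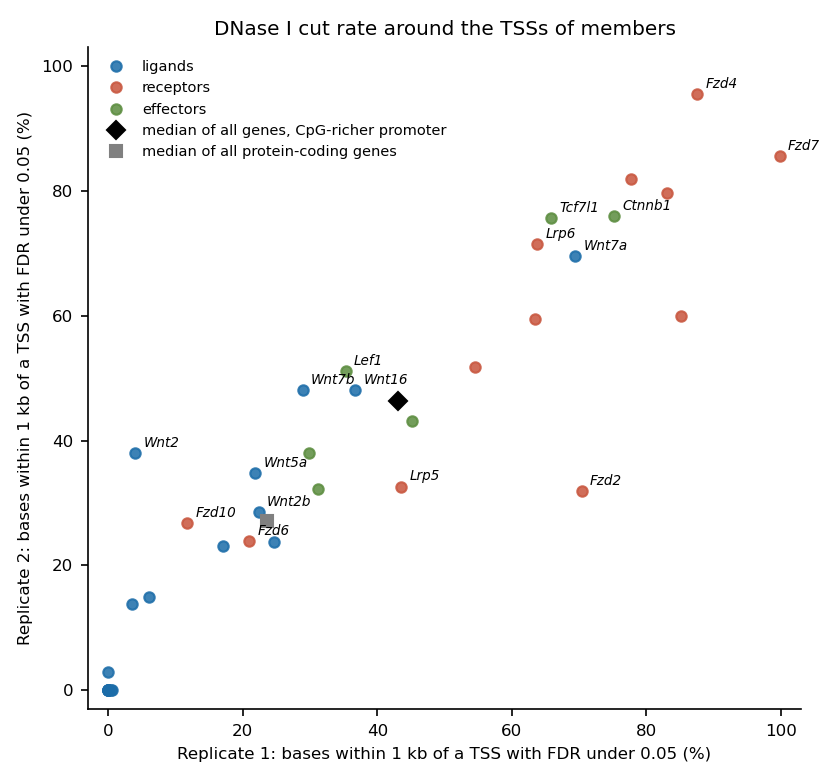
Percentage of bases within 1 kb of a TSS that had a cut-rate FDR under 0.05, in replicate 1 (horizontal axis) and replicate 2 (vertical axis), 1 point per member coloured by class, with the medians of all protein-coding genes (grey square) and of genes with a CpG-richer promoter (black diamond). Most receptors lie toward the upper right, up to Fzd7 and Fzd4, while Fzd6 and Fzd10 lie below the median of all genes in both libraries, and 6 ligands lie at 0 in both.

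The 28 shared promoter DHSs of the members, 7 at ligands, 13 at receptors and 8 at effectors, were within 1 kb of no other protein-coding gene's TSS. Of these, 19 overlapped an exon, including 11 of the 13 at receptors. A pair of shared promoter DHSs was found at 8 genes: Wnt7a, Wnt7b, Fzd1, Fzd4, Fzd7, Fzd9, Ctnnb1 and Tcf7l1. Footprints of both libraries were found in 21 of the 28 (75.0%), against 86.3% of all shared promoter DHSs. With the calls and footprints of replicate 2 alone, 35 promoter DHSs of members held a footprint, and with those of replicate 1 alone 29. The 3 without a footprint in either library were the weaker of 2 DHSs at Fzd4, Fzd9 and Tcf7l1. Per kb of promoter DHS the members had 8.39 footprints in replicate 1 and 9.64 in replicate 2, against 8.08 and 11.3 over all shared promoter DHSs.

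The widest promoter DHS of the members was that of Axin2, at 1334 bp (chr11:108920167-108921500), with 11 footprints in replicate 1 and 21 in replicate 2. It is the union of 3 calls of each library, with signal values from 1.14 to 1.57 in replicate 1 and from 2.27 to 3.84 in replicate 2. Axin2 is a textbook direct target of beta-catenin and its partners, so the DHS was searched for the letters that Lef1 and the Tcf7 factors prefer, CTTTGAT and CTTTGAA, on both strands (the 2 cannot overlap at the same place). It held 4 matches, all on the plus strand, 78, 441, 883 and 903 bases from the first TSS. They are shown with 10 bases on either side and the match in capitals.
Axin2 match 1: gccggctgcgCTTTGATaaggtcctgg
Axin2 match 2: cggctcgcgcCTTTGAAgtgcacagtt
Axin2 match 3: ggccggcgcgCTTTGATgtgcggggcg
Axin2 match 4: cggggcggcgCTTTGAAgttggcaggc
Match 1 lies in the first exon and the others in an intron. All 4 lay inside calls of both libraries. Match 1 was under a footprint in both, matches 2 and 3 in replicate 2 alone, and match 4 in neither.

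Such a group of matches was rare among accessible promoters. The Axin2 DHS was the only 1 of 14584 shared promoter DHSs to hold 4 or more matches, and the only 1 of the 455 that were 1000 bp or wider. Counted within 1 kb of the 5′-most TSS whether open or not, 204 of 21938 genes (0.930%) had 4 or more, and 48.7% had at least 1. Across the members, 2 of 28 promoter DHSs (7.14%) held a match, those of Axin2 and Lrp6, against 4.81% of all shared promoter DHSs. The Lrp6 match was under no footprint. A match of these letters is a description of the sequence and does not show that a factor was bound.

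Distal DHSs called in both libraries were found nearest members of every class. A shared DHS outside every protein-coding promoter window was assigned to the gene with the nearest protein-coding TSS, which need not be the gene it acts on. There were 48 nearest a member, 33 at ligands, 7 at receptors and 8 at effectors. At least 1 was found at 12 of 19 ligands (63.2%), 5 of 12 receptors (41.7%) and 3 of 6 effectors, or 20 of 37 members (54.1%), against 29.9% of all protein-coding genes. The members with the most were Wnt7a with 8, Wnt7b with 6, Wnt11 and Tcf7l2 with 5 each, and Wnt10a with 4. Wnt7a, Wnt7b and Wnt11 together had 19 of the 33 ligand DHSs. The counts rest on the calls used, and the total over all genes moved with them. The 48 were of 11428 distal shared DHSs. With the lenient lists there were 123 of 25027, and with the 20000 strongest calls of each library 21 of 5422. The calls of replicate 1 alone, with overlapping ones merged, gave 158 of 38748, and those of replicate 2 alone 143 of 25987. The split by class differed between the libraries. Without merging, the distal calls of replicate 1 were 60 at ligands, 52 at receptors and 51 at effectors, of 39937 over all genes. Those of replicate 2 were 95, 22 and 33, of 26437. Single genes held many of these calls: Wnt7a had 11 in replicate 1 and 44 in replicate 2, Wnt5a 19 and 2, Fzd4 13 and 1, and Tcf7l2 30 and 13. For 17 of the 48 the nearest TSS of any gene type belonged to a gene that is not protein-coding, and with such genes included 31 remained nearest a member.

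Wnt7b had 6 distal DHSs, and they lay from 1.24 to 71.3 kb upstream of the nearest Wnt7b TSS, all outside protein-coding genes, at percentiles from 41.3 to 96.7 in replicate 1 and from 48.4 to 99.0 in replicate 2, counted among all distal shared DHSs. The distal DHS of members with the highest geometric mean of the 2 signal values was 52.2 kb upstream of Wnt7b (chr15:85634421-85634920), with 2.37 and 9.41 and with 6 and 9 footprints. In replicate 1 alone a DHS of Wnt11, with 2.69, was higher. Its central 300 bases on the plus strand are shown, with bases footprinted in both libraries in capitals.
Wnt7b distal DHS, centre: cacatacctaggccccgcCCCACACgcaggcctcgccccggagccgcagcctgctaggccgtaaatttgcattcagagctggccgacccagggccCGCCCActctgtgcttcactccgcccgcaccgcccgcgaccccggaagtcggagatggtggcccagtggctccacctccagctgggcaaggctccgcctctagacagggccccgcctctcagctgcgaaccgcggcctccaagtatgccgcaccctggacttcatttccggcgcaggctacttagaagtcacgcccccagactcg
They held 25 CpG dinucleotides and 68.0% G and C, more than the 58.0% of the Wnt7b promoter DHS shown above. The nearest TSS of any type, of the gene Gm49539, was 11.4 kb away. The farthest of the 6, 600 bp wide, had its centre 0.164 kb from the TSS of Lncppara, a gene that is not counted as protein-coding.

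The 8 distal DHSs nearest Wnt7a were a strong one, one of middle to low rank and a weak cluster of 6. The strong one (chr6:91440821-91441080) lay 29.6 kb upstream, with 1.92 and 7.28 (percentiles of 92.4 and 97.9), and was 0.0370 kb from the TSS of 1810044D09Rik, a gene that is not counted as protein-coding. The one of middle to low rank lay 3.72 kb upstream, with 1.07 and 1.29 (percentiles of 59.1 and 28.3). The cluster of 6 lay from 76.0 to 86.3 kb downstream of the TSS, with signal values from 0.257 to 0.364 in replicate 1 and from 0.189 to 0.473 in replicate 2. All 6 were below the percentile of 3 in both libraries, so without them Wnt7a would have 2. Counted in a single library, 44 distal calls were nearest Wnt7a in replicate 2 and 11 in replicate 1.

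A further pair of member DHSs were at or above the percentile of 90 in both libraries. At Wnt11, a DHS 19.7 kb upstream (chr7:98815261-98815520) had 2.69 and 6.08, beside a weaker pair within about 1 kb. At Wnt10a, a DHS 16.8 kb downstream of the TSS (chr1:74808201-74808420), past the gene's end, had 2.30 and 4.69. Wnt10a is an example of a ligand without a promoter call that had distal DHSs nearby. Of the 14 ligands without a shared promoter DHS 8 had such sites, 13 in all, and Wnt2b had one of 1.91 and 3.13 at 6.24 kb upstream. Wnt1, Wnt2, Wnt3a, Wnt6, Wnt9b and Wnt10b had neither.

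The distal DHSs of receptors were few and often inside the gene. Of the 7, 4 lay over an exon of the same gene, 1.52 to 1.76 kb from the TSS, at Fzd1, Fzd5, Fzd7 and Fzd8. The strongest was that of Fzd8, with 1.91 and 3.94 (percentiles of 92.4 and 89.1). The exon DHS of Fzd7 (chr1:59483821-59484060) had 0.785 and 3.01 (32.1 and 79.8), and that of Fzd5 had 0.906 and 1.32 (44.6 and 29.8), so their order differed between the libraries. The Fzd7 DHS, with the higher geometric mean, is shown on the plus strand, with bases footprinted in both libraries in capitals, as an example of an open stretch inside a Frizzled gene.
Fzd7 exon DHS: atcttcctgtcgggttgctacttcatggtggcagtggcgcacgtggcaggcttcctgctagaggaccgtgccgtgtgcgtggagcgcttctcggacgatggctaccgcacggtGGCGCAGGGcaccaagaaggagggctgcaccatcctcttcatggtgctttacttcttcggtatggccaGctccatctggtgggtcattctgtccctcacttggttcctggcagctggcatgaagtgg
Its 240 bases held 13 CpG dinucleotides, and 10 bases were footprinted in both libraries. Fzd2, Fzd3, Fzd4, Fzd6, Fzd10, Lrp5 and Lrp6 had no distal shared DHS.

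Among the effectors, Tcf7l2 had 5 distal shared DHSs, Ctnnb1 2 and Axin2 1. Those of Tcf7l2 ran from 196 kb upstream, in an intron of Vti1a, to 134 kb downstream, and all were below the median distal DHS, with percentiles from 5.09 to 36.0 in replicate 1 and from 14.2 to 45.4 in replicate 2. The strongest effector DHS was in an intron of Axin2, 2.22 kb from the nearest TSS (chr11:108925301-108925500), with 1.90 and 2.45 (percentiles of 92.2 and 69.4). It is shown on the plus strand, with bases footprinted in both libraries in capitals.
Axin2 intron DHS: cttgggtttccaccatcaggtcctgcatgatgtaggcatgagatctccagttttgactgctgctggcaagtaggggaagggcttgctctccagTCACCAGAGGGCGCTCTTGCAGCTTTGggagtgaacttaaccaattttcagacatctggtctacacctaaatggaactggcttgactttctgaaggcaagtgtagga
Its 200 bases held 1 CpG dinucleotide, the fewest of the 6 DHS stretches shown, and its single footprint in each library left 27 bases in common. None of the 8 effector DHSs held CTTTGAT or CTTTGAA. Those letters were in 2 of the 48 distal DHSs of members (4.17%), nearest Wnt5a and Wnt7b, against 6.56% of all distal shared DHSs, and neither match was under a footprint.

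**Figure D5:**
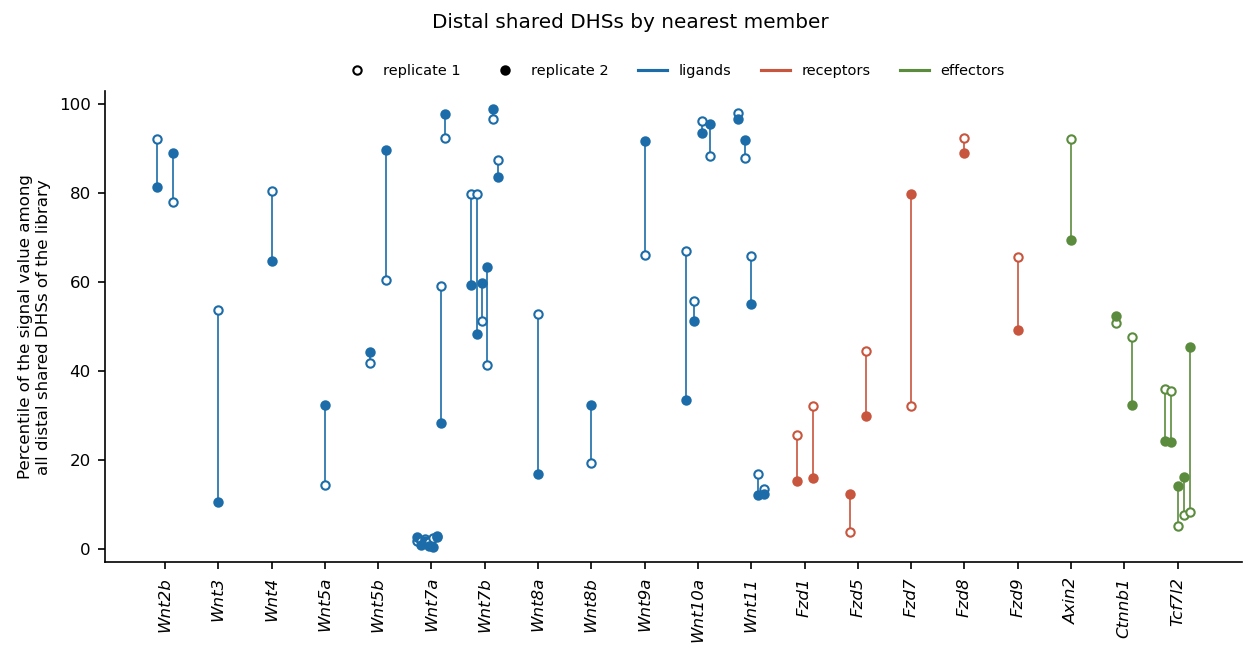
Percentile of the signal value of each of the 48 distal shared DHSs nearest a member, among all distal shared DHSs of the same library (vertical axis, open circles for replicate 1, filled for replicate 2, a line joining the 2 values of a DHS), by gene and coloured by class. Wnt7b, Wnt10a and Wnt11 have DHSs near the top in both libraries, and 6 DHSs of Wnt7a lie below 3.

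The other genes of the pathway were described by 4 lists of 78 genes in all, of which 55 had a shared promoter DHS. Of the 78, 60 had CpG-richer promoters, and 48 of these had one, against 90.4% of all CpG-richer genes and 55.7% of all genes. By list, the CpG-richer genes with one were 8 of 11 for secretion and extracellular modulators and 11 of 15 for other receptors and membrane regulators. They were 17 of 17 for cytoplasmic transducers and 12 of 17 for nuclear partners and targets. Of the genes for Wnt secretion and extracellular modulators, 10 of 21 had one, and the genes first by mean percentile over the libraries, the order used for all 4 lists, were Porcn, the acyltransferase that modifies Wnt proteins, with 0.985 and 3.24, and the Wnt-binding antagonist Sfrp2, with 1.07 and 1.67. In this list 8 genes had no promoter call in either library, among them the antagonists Cer1 and Dkk4. Of other receptors and membrane regulators, 13 of 18 had one, led by Kremen1, a receptor for Dickkopf proteins, with 1.88 and 4.92, and the R-spondin receptor gene Lgr4, with 1.89 and 3.72. Celsr1 and Kremen2 had no call. Reck and Adgra2, which code for parts of the receptor complex of Wnt7a and Wnt7b, had 1.62 and 2.37, and 0.990 and 2.17.

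Of the cytoplasmic transducers, 20 of 20 had a shared promoter DHS, and 17 of these genes had CpG-richer promoters, a class at 90.4%. The first in order were Csnk1d, a casein kinase, with 4.61 and 13.1 (percentiles of 99.9 and 98.2), and Btrc, which marks phosphorylated beta-catenin for destruction, with 3.33 and 16.1 (97.9 and 99.7). Of the nuclear partners and targets, 12 of 19 had one, led by the co-repressor genes Tle4, with 3.06 and 19.5, and Tle1, with 2.61 and 12.9. Neurog1, Nkx2-2, Sp8, Tcf7 and Tle2 had no call in either library.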

How the data were processed

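The deposited files are mm10 interval tables made separately for each of the 2 libraries, per the file headers; the sources used here do not give the aligner, caller, settings or depth. Peak files hold the authors' signal value per call, a tag density of unstated scaling, and each library has a stricter list and a lenient list, of which the stricter was used. The deposited cut-rate file gives a p-value corrected for false discovery per base, listed under 0.05. The deposited footprint files carry 0.01 as a threshold p-value on every line.

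Intervals were joined in Python 3.11.15 with GENCODE M21 basic transcripts (GRCm38). Overlap meant 1 bp or more. Each gene took its highest promoter signal value. Distal DHSs went to the nearest protein-coding TSS from their midpoint. The interval code was tested on simulated intervals. With 1 group of 2 libraries no condition was tested, and no p-values were computed; the labels number the animals separately. Named were all 37 members, the 5 with the most distal DHSs, the DHSs of highest geometric mean signal per class, and in each further list the 2 with the highest mean percentile and the first 2 without a call, in alphabetical order (all where 5 or fewer); other genes named were chosen after their values were seen. Sequences were read from the mm10 RefSeq assembly and some were shortened or replaced by the next in rank. The alternatives were the lenient lists, other windows, overlap rules, transcripts and gene types, stronger calls, a distance limit of 100 kb, and each library alone. The members and the lists were chosen with earlier results of these data known. The B6CASTF1/J genome differs from the reference, and allele effects on the calls were not tested.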

Additional observations from a re-analysis of the deposited data

How the results depend on the processing

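Of 38 alternatives, 28 left a count within 1.5 times of the reported one and 10 did not; in all 10 the cause was not tested. The ligands with a shared promoter DHS, 5 of 19, became 10 with the lenient lists and 2 within 0.5 kb, and from 5 to 8 in a single library; the other settings gave 4 or 5. Receptors stayed between 7 and 11 of 12 and effectors between 4 and 6 of 6. The 48 distal shared DHSs became 123 with the lenient lists, 21 with the 20000 strongest calls and 31 with TSSs of all gene types, and from 143 to 158 in a single library. The total over all genes, 11428, became 25027 with the lenient lists and 5422 with the strongest calls. It stayed the same with TSSs of all gene types, and was 25987 and 38748 in the single libraries. The 21 promoter DHSs with a footprint in both libraries became 41 with the lenient lists and from 29 to 35 in a single library. No paired analysis was possible because there is 1 group and no test. The depth behind the calls is unknown, so a member without a call is not shown to be closed, and 2 libraries give no estimate of the spread between animals beyond their difference.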

Other observations

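Other short sequences were counted in the members' DHSs, on both strands, with no test. The CTCF consensus, the site of an insulator protein, was in 6 of the 48 distal DHSs nearest members (12.5%), against 2170 of all 11428 distal shared DHSs, and in none of the 28 promoter DHSs, against 1.54%. The 6 were nearest Wnt10a, Wnt5b, Wnt8a and Fzd8, with 1 each, and Wnt7b, with 2. The letters CAGATG, which neuronal basic helix-loop-helix factors prefer, were in 11 of the 48 (22.9%), against 20.5%, and in 2 of the 28 promoter DHSs (7.14%), of Fzd4 and Ctnnb1, against 13.7%. The distal calls of a single library were spread differently: Wnt5a was nearest to 19 calls of replicate 1 and 2 of replicate 2, and Tcf7l2 to 30 and 13.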
